A study of Mus musculus with 4 samples.

Results

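The p53 pathway was described through 33 genes, namely Trp53 itself, which encodes the transcription factor p53, and 32 genes that are widely known as its targets, partners or feedback regulators. They were matched to the table by symbol, from a list drawn up with earlier results of these data known. All 33 were found among the 31828 genes of the table, and all 33 had a mean of at least 1 TPM over the libraries, the level required for the test, as did 14116 genes in all. TPM is the abundance of a transcript corrected for its length and scaled to a fixed total in each library. RNA was measured in AML12 cells, an immortal hepatocyte line from mouse liver that carries a transgene for human TGF alpha, with 2 libraries from 2D and 2 from 3D cultures. The 2D cells grew in dishes to 50% confluence and then received 1 mM hydroxyurea for 24 h. The 3D cells were embedded in Matrigel, a basement membrane extract, for 24 h and then received 1 mM hydroxyurea for 36 h. Medium, serum, insulin, transferrin, selenite and dexamethasone were the same. Hydroxyurea stops the supply of deoxynucleotides and so stalls DNA replication, which activates p53. All 4 libraries came from treated cells, so the levels below are those of drug-treated cultures, and the form of the culture cannot be told apart from the time in the drug.

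In an unstressed cell p53 protein is kept low because Mdm2 binds it and marks it for destruction. DNA damage and stalled replication release p53, which then binds a DNA element near its target genes and raises their transcription. Its targets arrest the cell cycle, set off apoptosis, repair DNA and adjust metabolism, and several of them, Mdm2 among them, close a feedback loop by lowering p53 again. The messenger RNA of Trp53 itself is a poor guide to p53 activity, since the protein is regulated mainly through its stability.

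The DNA element was looked for in the promoters, since it is what these genes are known to share. RefSeq promoter windows (GRCm38.p6), from 250 bases before to 50 bases after a transcription start, were at hand for 26 of the 33 genes, in 35 windows. The p53 decamer, the 10-base unit of the element, reads alike on both strands. An exact decamer lay in 13 of the 35 windows (37.1%), and in 8.36% of 32851 windows of all genes. A pair of decamers with an intact core in each, at most 3 mismatches in all and at most 13 bases between them lay in 10 windows (28.6%), against 6.72% of all windows. With at most 1 mismatch there were 2 (5.71%), against 0.417%. Windows of a gene with several starts can overlap, and both windows of Aen hold the same pair. These counts describe letters in a short window, not binding, and many known p53 sites lie outside such windows. The 4 pairs with the fewest mismatches are shown, with those of Trp53 and Bbc3 (3 mismatches each) because later results turn on these genes. Capitals mark the decamers of the pair with the fewest mismatches, and each stretch is read 5′ to 3′ on the strand of its gene. In Cdkn1a the 10 bases just after the second marked decamer, left in lower case, also have an intact core, with 1 mismatch. They form a further pair with that decamer, without a gap. The other Cdkn1a window held no exact decamer and no such pair.
Cdkn1a (chr17:29090881-29090962, plus strand, 0 mismatches): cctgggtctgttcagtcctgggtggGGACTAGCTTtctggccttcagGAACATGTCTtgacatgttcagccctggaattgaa
Rps27l (chr9:66946271-66946340, plus strand, 1 mismatch): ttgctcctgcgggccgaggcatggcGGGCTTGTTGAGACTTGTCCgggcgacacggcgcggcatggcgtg
Bax (chr7:45467054-45467124, minus strand, 2 mismatches): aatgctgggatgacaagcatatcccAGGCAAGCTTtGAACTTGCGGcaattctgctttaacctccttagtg
Sesn1 (chr10:41887228-41887300, plus strand, 2 mismatches): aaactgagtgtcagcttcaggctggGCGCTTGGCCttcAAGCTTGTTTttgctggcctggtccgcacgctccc
Bbc3 (chr7:16309461-16309530, plus strand, 3 mismatches): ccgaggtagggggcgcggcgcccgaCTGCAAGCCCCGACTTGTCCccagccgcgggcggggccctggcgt
Trp53 (chr11:69580259-69580328, plus strand, 3 mismatches): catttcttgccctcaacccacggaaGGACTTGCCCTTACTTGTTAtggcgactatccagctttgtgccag

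Most of the listed members were among the more abundant transcripts of these cells in both cultures. The median of the members' mean levels was 198 TPM, against 22.2 TPM over all genes tested, and 26 of the 33 reached a mean of 100 TPM. The 22 further p53 targets described below had a lower median, 64.9 TPM. Cdkn1a, which encodes the cyclin-dependent kinase inhibitor p21, was the highest and ranked 26 and 24 in 2D and 18 and 19 in 3D among all genes of the table. Ccng1, which encodes cyclin G1, followed at ranks 25 to 28. Mdm2, Phlda3, Rps27l, Pmaip1 and Bax came next, with means from 724 to 1309 TPM. The lowest members were Ddit4l (5.35 TPM), Sesn1 (5.41 TPM) and Ddb2 (9.67 TPM). All members together held 1.55% and 1.51% of the total TPM of a library in 2D and 1.65% and 1.64% in 3D.

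**Figure D1:**
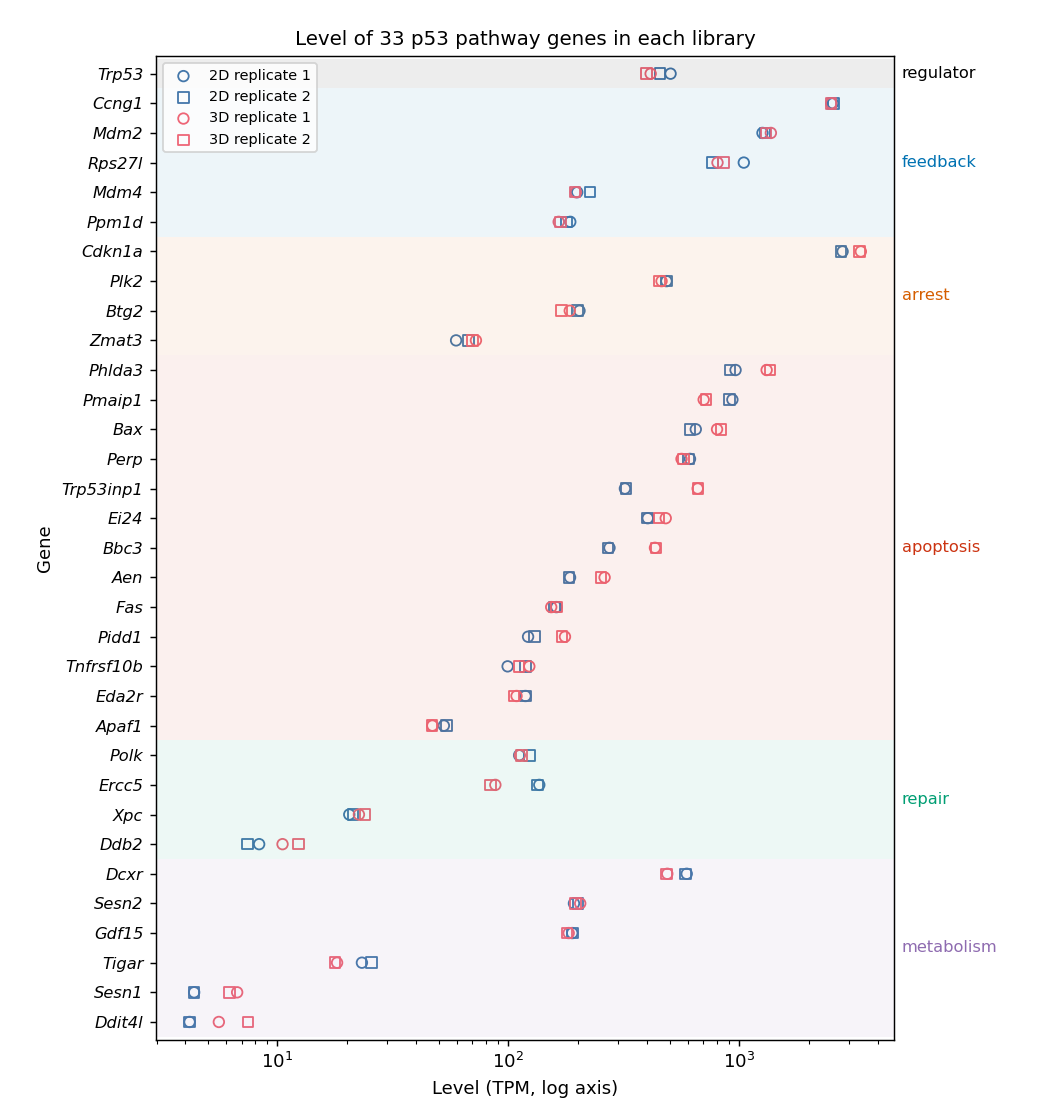
Level of each p53 pathway gene in each of the 4 libraries, in TPM on a log axis, grouped by role and ordered by mean level within a role. Circles are replicate 1 and squares replicate 2, blue for 2D and red for 3D. Most genes sit above 100 TPM, with Cdkn1a and Ccng1 the highest and Ddit4l and Sesn1 the lowest.

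The pathway did not move as a block between the cultures. At a threshold of 0.05 for the adjusted p, 3D-cultured cells had 11 members higher and 8 lower, and 14 did not pass. Over all genes tested, 23.4% were higher, 27.1% lower and 50.5% called in either direction. With each library centred on its median the split of the members was 11 and 5. Fold changes are given as log2 differences on log2(TPM + 1), 3D minus 2D, with their standard error (SE). Their median over the members was -0.02, and over all genes tested -0.04. The median size of the change, regardless of sign, was 0.18 for the members and 0.31 for all genes tested, and 0.27 for the 1984 genes with a mean of at least 100 TPM. Of the 26 members at that level 53.8% were called, against 63.8% of all such genes. The 2 libraries of a culture lay entirely above or below those of the other for 28 members, which is 84.8% of them, against 77.5% of all genes tested. Of the 19 called members 10 were called under each of the 14 alternatives tried, namely Trp53inp1, Bbc3, Phlda3, Aen, Pidd1, Bax and Cdkn1a, which were higher, and Pmaip1, Ercc5 and Dcxr, which were lower. The other 9 lost the call in at least 1 fit that left out a library. With all libraries kept, Trp53, Btg2, Apaf1, Eda2r, Ddb2 and Ddit4l were not called with no filter on low values, nor Trp53, Btg2, Apaf1, Eda2r and Ei24 with a constant prior variance. Eda2r and Btg2 were also lost under centring, quantile normalization and rescaling, Trp53 under centring, and Eda2r when GC content and transcript length were corrected for. The labels do not say whether the 2 libraries of a culture came from separate cultures, so p-values measure the spread between libraries only. In bulk RNA, fewer cells that express a gene and less RNA per cell cannot be told apart.

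**Figure D2:**
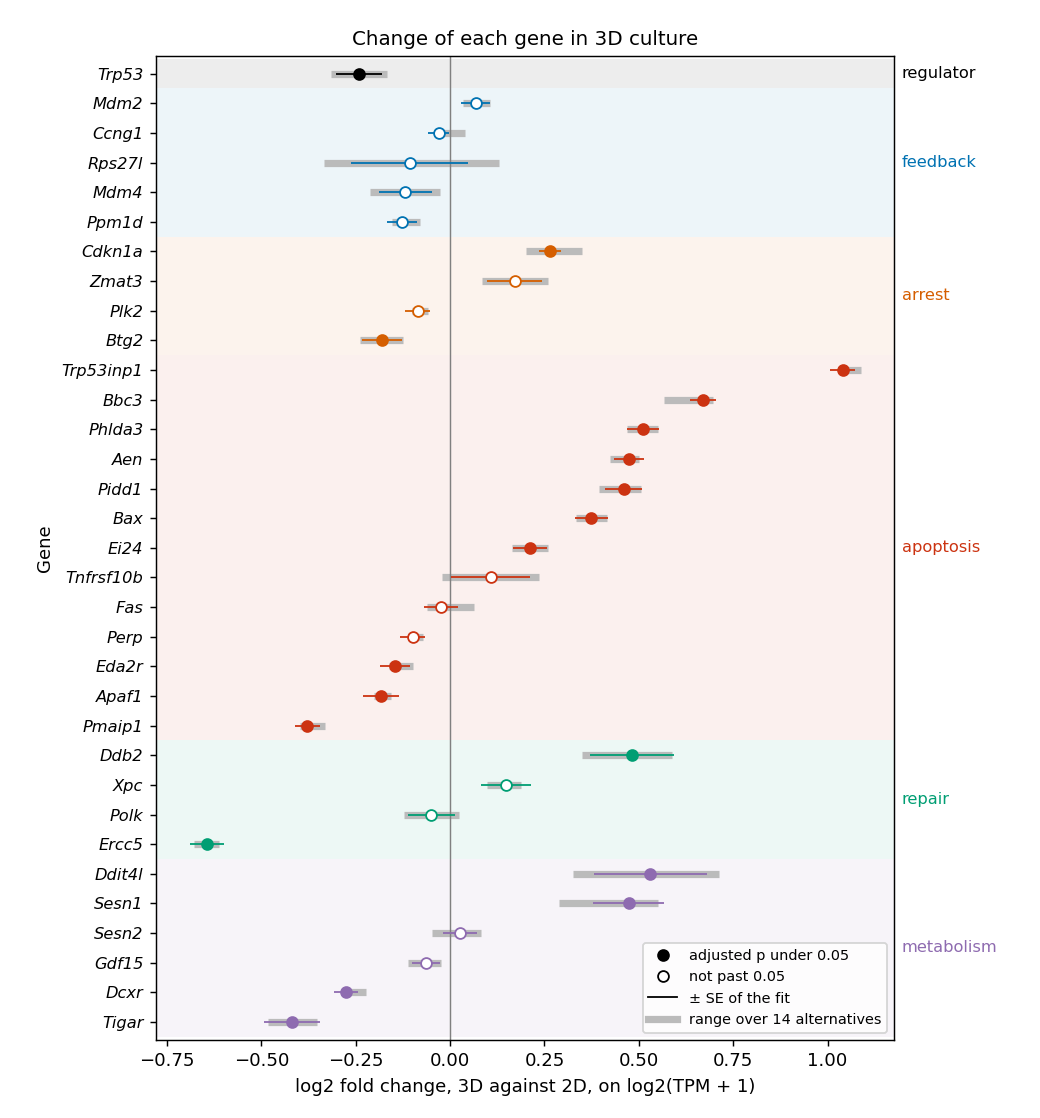
Log2 fold change of each p53 pathway gene, 3D against 2D, on log2(TPM + 1), grouped by role. Points are the fitted values with their SE, filled where the adjusted p was under 0.05, and grey bars span the 14 alternatives. Apoptosis genes spread from -0.38 for Pmaip1 to 1.04 for Trp53inp1, while the 5 feedback genes stay close to 0.

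Trp53 RNA (ENSMUSG00000059552, chromosome 11, 69580359 to 69591873, GRCm38) was lower in 3D. Its level was 505 and 455 TPM in the 2D libraries and 414 and 397 TPM in the 3D libraries, so that the cultures did not overlap. The difference was -0.24 (SE 0.06, adjusted p = 0.0301). The call was not stable, with an adjusted p from 0.0134 to 0.141 when each library was left out in turn. Of these fits the one without 2D replicate 2 kept it, while those without 2D replicate 1, 3D replicate 1 or 3D replicate 2 did not. With all libraries kept it was also lost with no filter on low values (adjusted p = 0.0667), with centring (adjusted p = 0.0604) and with a constant prior variance (adjusted p = 0.0714).

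None of the 5 genes that feed back on p53 passed the threshold, while 50.5% of all genes tested did. Mdm2, the ubiquitin ligase that targets p53, had 1262 and 1294 TPM in 2D and 1372 and 1309 TPM in 3D, a difference of 0.07 (SE 0.04, adjusted p = 0.203). Mdm4, its partner that masks the activation domain of p53, had 199 and 226 TPM in 2D and 196 and 194 TPM in 3D, a difference of -0.12 (SE 0.07, adjusted p = 0.220). Without 2D replicate 1 this became -0.21 (adjusted p = 0.0247). Ppm1d, the phosphatase Wip1 that reverses activating phosphorylation of p53, was 186 and 179 TPM in 2D and 165 and 168 TPM in 3D, just outside the threshold (-0.13, SE 0.04, adjusted p = 0.0548). Ccng1, which directs a phosphatase to Mdm2, had nearly the same level throughout, with 2547 and 2562 TPM in 2D and 2504 and 2497 TPM in 3D (-0.03, SE 0.03, adjusted p = 0.402). Its sign was opposite under quantile normalization and when GC content and transcript length were corrected for. Rps27l, a ribosomal protein paralogue that binds Mdm2, differed more within 2D (1047 and 765 TPM) than between cultures (806 and 857 TPM in 3D). Its difference was -0.11 (SE 0.15, adjusted p = 0.595), and it went from 0.12 without 2D replicate 1 to -0.33 (adjusted p = 0.0168) without 2D replicate 2. Reads of Rps27l may also be shared with its close relative Rps27.

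Some ratios of members were formed after their values were seen. Because TPM of 2 genes in a library share their scale, their ratio needs no normalization between libraries. Mdm2 exceeded Trp53 by 2.50 and 2.84 times in 2D and by 3.32 and 3.30 times in 3D. Cdkn1a exceeded Trp53 by 5.56 and 6.06 times in 2D and by 8.13 and 8.37 times in 3D. Both ratios were separated by culture, as was every other ratio formed. Single genes were separated in this way for 77.5% of all genes tested. An exact two-sided permutation test of 2 libraries against 2 cannot give less than p = 0.333, which is what every ratio gave.

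Of the 4 genes of cell cycle arrest, Cdkn1a rose and Btg2 fell, so that 50% were called, against 50.5% of all genes tested. Cdkn1a (ENSMUSG00000023067, chromosome 17, 29090979 to 29100722) had 2805 and 2759 TPM in 2D and 3364 and 3323 TPM in 3D. That is 1.20 times the 2D mean and a difference of 0.27 (SE 0.03, adjusted p = 0.00259), far outside the spread within either culture. Btg2, an antiproliferative adaptor of the deadenylase complex, went from 203 and 199 TPM to 185 and 170.5 TPM (-0.18, SE 0.05, adjusted p = 0.0437). This call was lost in each of the 4 fits that left out a library, where its adjusted p was 0.0556 to 0.199. Plk2, a polo-like kinase, had 484 and 485 TPM in 2D and 461 and 452 TPM in 3D (-0.09, adjusted p = 0.0901). Zmat3, an RNA-binding zinc finger protein that acts on splicing, had 59.5 and 67.3 TPM in 2D and 72.5 and 70.2 TPM in 3D (0.17, adjusted p = 0.117), and its value was 0.08 (adjusted p = 0.295) without 2D replicate 1 and 0.26 (adjusted p = 0.0341) without 2D replicate 2. It passed the threshold in the latter fit and when GC content and transcript length were corrected for.

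Of the 13 apoptosis genes, the largest group, 7 were higher, 3 lower and 3 not called, so that 76.9% were called, against 50.5% of all genes tested and 63.8% of those with a mean of at least 100 TPM. Of these calls, those of Apaf1, Ei24 and Eda2r were lost when a library was left out. The median size of the change was 0.37 for apoptosis, 0.35 for metabolism, 0.32 for repair, 0.18 for arrest and 0.11 for feedback genes. The summed level of the apoptosis genes was 4897 and 4799 TPM in the 2D libraries and 5826 and 5880 TPM in the 3D libraries. The sum of the 5 feedback genes was 5241 and 5026 TPM in 2D and 5043 and 5025 TPM in 3D, so the apoptosis genes were below the feedback genes in both 2D libraries and above them in both 3D libraries. Trp53inp1 (ENSMUSG00000028211, chromosome 4, 11156431 to 11174379), a nuclear protein that promotes phosphorylation of p53 and takes part in autophagy, changed more than any other member. It went from 320.1 and 323 TPM to 661 and 663 TPM, which is 2.06 times the 2D level (1.04, SE 0.03, adjusted p = 0.00023). It was the only member with a change over 1 on the log2 scale.

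The proteins that act at mitochondria did not move one way. Bbc3 (ENSMUSG00000002083, chromosome 7, 16308393 to 16318205) encodes Puma, a BH3-only protein that neutralises survival proteins of the Bcl2 family. It rose from 274 and 271 TPM to 432 and 437 TPM, 1.59 times the 2D level (0.67, SE 0.03, adjusted p = 0.000461). Pmaip1 (ENSMUSG00000024521, chromosome 18, 66458604 to 66465550) encodes Noxa, another BH3-only protein, and fell from 935 and 909.7 TPM to 702 and 717 TPM, 0.769 times the 2D level (-0.38, SE 0.03, adjusted p = 0.0016). The ratio of Bbc3 to Pmaip1 was 0.294 and 0.298 in 2D but 0.615 and 0.610 in 3D. It thus differed by 1.05 on the log2 scale, with ranges far apart and an exact permutation p of 0.333, the smallest possible here. Bax, the pore-forming effector downstream of both, rose from 649 and 613 TPM to 802 and 834 TPM (0.37, SE 0.04, adjusted p = 0.00329). Apaf1, the scaffold of the apoptosome that forms once cytochrome c is released, was slightly lower, from 52.6 and 54.0 TPM to 46.9 and 46.7 TPM (-0.18, SE 0.05, adjusted p = 0.0328), a call lost whichever library was left out (adjusted p 0.0624 to 0.138). Ei24, a membrane protein of the endoplasmic reticulum, had 402 TPM in each 2D library and 481 and 450.4 TPM in 3D (0.21, SE 0.04, adjusted p = 0.0172), and kept its call only without 3D replicate 2 among the fits that left out a library (adjusted p 0.0415 to 0.106).

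Other intracellular death genes rose by similar amounts. Phlda3, a pleckstrin homology protein that restrains the survival kinase Akt, went from 965 and 912 TPM to 1315 and 1357 TPM (0.51, SE 0.04, adjusted p = 0.00128). Aen, a nuclease that degrades DNA in dying cells, went from 185 and 184 TPM to 261 and 252 TPM (0.47, SE 0.04, adjusted p = 0.00126). Pidd1, the platform of the PIDDosome that activates caspase 2, went from 122 and 129.6 TPM to 176 and 170.5 TPM (0.46, SE 0.05, adjusted p = 0.00249). These 3 genes were 1.38 to 1.42 times their 2D level, with no overlap between the cultures. Perp, a membrane protein of desmosomes, had 612 and 605 TPM in 2D and 563 and 573 TPM in 3D (-0.10, SE 0.03, adjusted p = 0.0604).

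None of the 3 receptors among the apoptosis genes was called higher in 3D, while 23.4% of all genes tested were. Fas, the receptor of Fas ligand, had 162 and 159 TPM in 2D and 153 and 162 TPM in 3D, with overlapping ranges (-0.02, SE 0.04, adjusted p = 0.676). Tnfrsf10b, the TRAIL receptor, had 99.4 and 119 TPM in 2D and 123 and 111 TPM in 3D (0.11, SE 0.10, adjusted p = 0.431). The signs of both turned in some alternatives. Eda2r, the receptor of ectodysplasin A2, was lower, at 119 TPM in each 2D library and 109 and 106 TPM in 3D (-0.15, SE 0.04, adjusted p = 0.0378), and this call was lost in each fit that left out a library (adjusted p 0.0827 to 0.189).

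**Figure D3:**
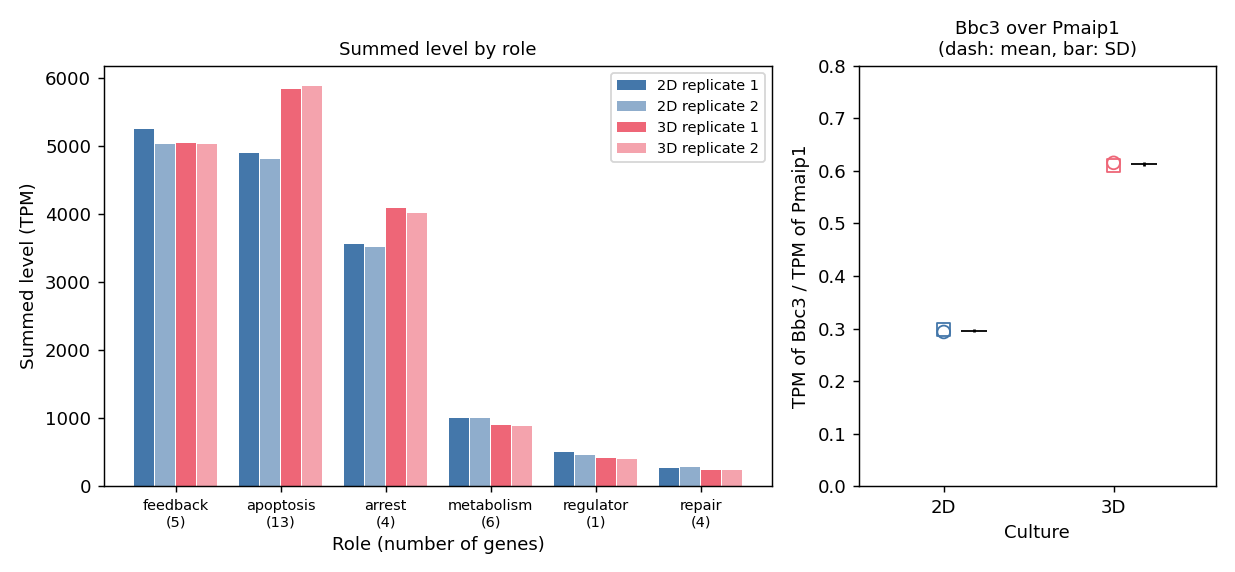
Left, summed TPM of the genes of each role in each library, with the number of genes in brackets. Right, ratio of Bbc3 to Pmaip1 TPM in each library, with the mean and SD of each culture (n = 2). The apoptosis sum is 4799 to 4897 TPM in 2D and 5826 to 5880 TPM in 3D, and the ratio is 0.294 to 0.298 in 2D and 0.610 to 0.615 in 3D.

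Among the 4 repair genes, 1 rose and 1 fell, so that 50% were called, against 50.5% of all genes tested. Ercc5 (ENSMUSG00000026048, chromosome 1, 44147744 to 44181260), which encodes the nuclease Xpg that cuts on the 3′ side of a lesion in nucleotide excision repair, had the largest drop of all members. It fell from 136 and 134 TPM to 87.9 and 84.0 TPM, 0.637 times the 2D level (-0.64, SE 0.05, adjusted p = 0.000865). Ddb2, which recognises lesions in chromatin, was low but higher in 3D, with 8.34 and 7.45 TPM in 2D and 10.5 and 12.3 TPM in 3D (0.48, SE 0.11, adjusted p = 0.023). Without 2D replicate 2 (adjusted p = 0.0812) or 3D replicate 2 (adjusted p = 0.0996) Ddb2 was not called. It overlaps Acp2 on the opposite strand, which the stranded library keeps apart. Xpc, the other lesion sensor of this pathway, had 20.5 and 21.2 TPM in 2D and 22.6 and 23.9 TPM in 3D (0.15, SE 0.07, adjusted p = 0.126). Polk, a polymerase that copies past lesions, had 111 and 123 TPM in 2D and 112 and 114 TPM in 3D, with overlapping ranges (-0.05, SE 0.06, adjusted p = 0.534).

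The 6 genes of metabolism and stress signalling split evenly, with 2 higher, 2 lower and 2 not called. That is 66.7% called, against 50.5% of all genes tested. Dcxr, a reductase of sugars and dicarbonyls, was the most abundant and fell from 593 and 585 TPM to 488 and 484 TPM (-0.28, SE 0.03, adjusted p = 0.00314). Tigar, a phosphatase that lowers glycolysis by degrading fructose bisphosphate, fell from 23.2 and 25.5 TPM to 18.1 and 17.8 TPM (-0.42, SE 0.07, adjusted p = 0.010), but was no longer called without 3D replicate 2 (adjusted p = 0.0545). Sesn1 and Sesn2 encode sestrins, which restrain the growth kinase complex mTORC1. Sesn1 rose from 4.36 and 4.37 TPM to 6.70 and 6.20 TPM (0.47, SE 0.09, adjusted p = 0.0141), but not without 3D replicate 1 (adjusted p = 0.0799) or 3D replicate 2 (adjusted p = 0.0506). Sesn2 was far more abundant and had overlapping ranges, 193 and 201 TPM in 2D and 205 and 196 TPM in 3D (0.03, SE 0.05, adjusted p = 0.661). Its level was 44.1 and 46.0 times that of Sesn1 in 2D and 30.6 and 31.6 times in 3D. Ddit4l, a further inhibitor of mTORC1, had 4.17 TPM in each 2D library and 5.58 and 7.47 TPM in 3D (0.53, SE 0.15, adjusted p = 0.0389), and was called only without 3D replicate 1 among the fits that left out a library (adjusted p 0.0267 to 0.122). Its difference was 0.71 without 3D replicate 1, 0.35 without 3D replicate 2 and 0.33 with a pseudocount of 5, and with that pseudocount Sesn1 differed by 0.29. Gdf15, a secreted stress hormone, had 189 and 189.8 TPM in 2D and 183 and 179.8 TPM in 3D (-0.06, SE 0.04, adjusted p = 0.205), and passed the threshold when GC content and transcript length were corrected for (-0.11, adjusted p = 0.0476).

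**Figure D4:**
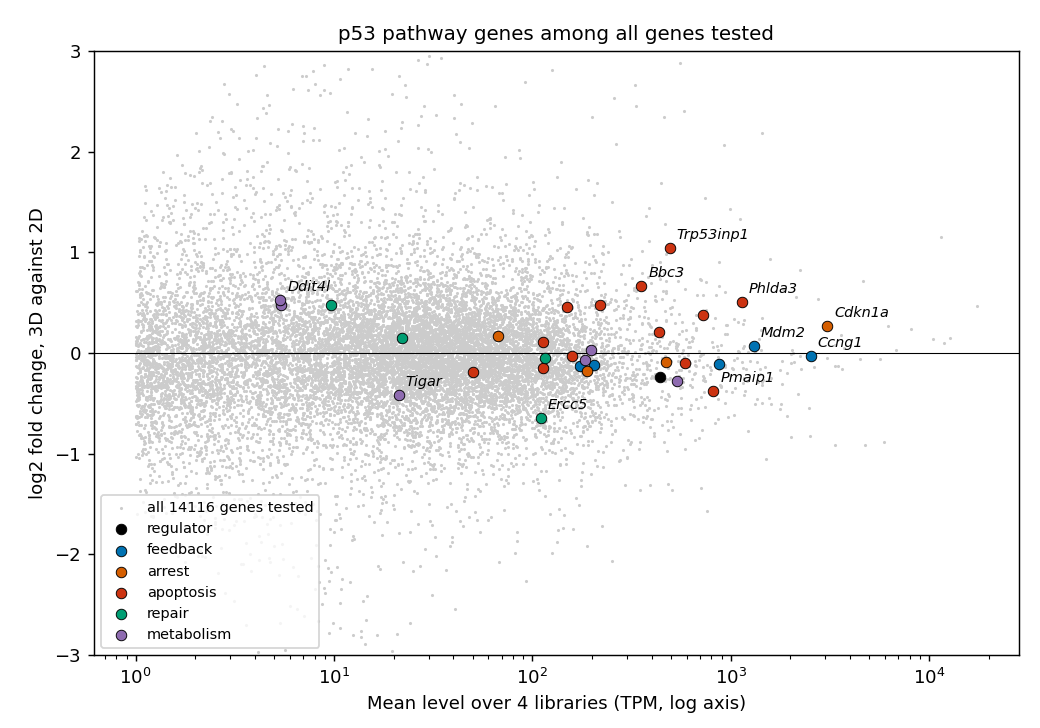
Mean level over the 4 libraries (TPM, log axis) against the log2 fold change, 3D against 2D, for the 14116 genes tested (grey) and the 33 p53 pathway genes coloured by role. The vertical axis stops at 3 in either direction, which leaves out 33 other genes. Most members lie to the right, at high levels, and all lie within 1.04 of 0.

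Position and promoter letters were set beside the calls as a description, after the values were seen. Bbc3, Bax, Aen and Pidd1 all lie on chromosome 7, at starts of 16308393, 45461697, 78895854 and 141438113. All 4 were higher in 3D, while 21.6% of the 1086 genes tested on that chromosome were. These 4 are also all apoptosis genes, and of the 13 apoptosis genes 53.8% were higher. The other chromosomes with 4 members had no such run of calls, with 1 higher and 2 lower on chromosome 1, 1 higher and 1 lower on chromosome 10, and 0 higher and 2 lower on chromosome 11. Of the 9 genes with a pair of decamers, 5 were higher, 2 lower and 2 not called. Of the 17 genes with a window but no pair, 4 were higher, 5 lower and 8 not called. Among all genes tested, 23.4% were higher, 27.1% lower and 50.5% called in either direction. Cdkn1a and Rps27l, whose pairs had the fewest mismatches, differed by 0.27 and -0.11. A link between promoter letters and calls was not tested.

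Other genes of the pathway were read in the same fit, from lists drawn up with earlier results of these data known. Of 23 p53 relatives and upstream regulators tested, 5 were higher (21.7%), 4 lower (17.4%) and 14 not called. The shares over all genes tested were 23.4% higher and 27.1% lower. The 3 most abundant were Npm1 and Rpl11, which did not pass (adjusted p = 0.121 and 0.0926), and Rpl5, a ribosomal protein that can hold back Mdm2, which rose by 0.25 (adjusted p = 0.0182). Cdkn2a, the locus of p16 and of the Mdm2 inhibitor p19Arf, rose from 68.8 and 64.5 TPM to 101 and 124 TPM (0.74, adjusted p = 0.00565). The table gives a single value for this locus, so its products cannot be separated. Ppp1r13b, the p53 cofactor Aspp1, rose by 0.73 (adjusted p = 0.00334) and Sirt1, a deacetylase of p53, by 0.69 (adjusted p = 0.019).

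Of 22 further p53 targets tested, 5 were higher (22.7%), 8 lower (36.4%) and 9 not called, again with no common direction. Over all genes tested 23.4% were higher and 27.1% lower. Lif, a cytokine, rose from 141 and 145 TPM to 283 and 263 TPM (0.93, adjusted p = 0.000526). Pank1, a kinase of coenzyme A synthesis, and Cd80, a costimulatory ligand, each rose by 0.95 (adjusted p = 0.00189 and 0.00622), and Ephx1, the microsomal epoxide hydrolase, by 0.80 (adjusted p = 0.000643). Gtse1, a microtubule protein that shuttles p53 out of the nucleus, fell by 0.18 (adjusted p = 0.0129). Bloc1s2 did not pass (-0.03, adjusted p = 0.723).

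Genes that p53 is known to lower indirectly, through p21 and the E2F and DREAM repressor complexes, mostly went in 1 direction. Of 18 tested, 0 were higher and 17 lower in 3D, with a median of -0.62. Lower genes made up 94.4% of this list, 27.1% of all genes tested and 38.0% of those with a mean of at least 100 TPM. Ube2c, which feeds the anaphase promoting complex, fell from 733 and 731 TPM to 279 and 292 TPM (-1.36, adjusted p = 0.000215). Birc5, the chromosomal passenger Survivin, fell by 1.31 (adjusted p = 0.000245) and Bub1, a spindle checkpoint kinase, by 1.20 (adjusted p = 0.000406). Aurka and Top2a, an abundant mitotic kinase and a topoisomerase, fell by 0.52 and 0.63 (adjusted p = 0.000895 and 0.000494). Plk1, a mitotic kinase, was the 1 that did not pass (-0.15, adjusted p = 0.248). These genes are also known as markers of cycling cells. The part of p53 or p21 in their lower level was not tested, and culture cannot be told apart from time in the drug.

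Several members, among them Sesn2, Gdf15, Bbc3 and Pmaip1, are also known to answer to Atf4 and Chop, the factors of the integrated stress response. Of 14 targets and factors of that response tested, 5 were higher (35.7%), 7 lower (50%) and 2 not called. Among all genes tested 23.4% were higher and 27.1% lower. Ddit3, which encodes Chop, fell from 868 and 818 TPM to 717 and 740 TPM (-0.21, adjusted p = 0.0167) and Atf4 by 0.15 (adjusted p = 0.0388). Asns, asparagine synthetase, fell by 0.99 (adjusted p = 0.000335), Cth, cystathionine gamma-lyase, by 0.93 (adjusted p = 0.00488) and Chac1, a glutathione-degrading enzyme, by 0.65 (adjusted p = 0.00148), while Cebpb rose by 0.23 (adjusted p = 0.0236). The part of this response in the change of any member was not tested.

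Markers were read to check the labelled cell type. Of 7 hepatocyte markers in the table, all had a mean of at least 1 TPM, with Krt18 at 3275 to 6286 TPM, but Alb, the defining product of hepatocytes, was only 0.819 and 1.20 TPM in 2D and 12.7 and 10.0 TPM in 3D. The summed level of the hepatocyte list was 9411 to 9614 TPM in 2D and 5574 to 5655 TPM in 3D, but this sum is nearly all keratin. Krt8 and Krt18 fell by 0.82 and 0.91, while the other 5 markers all rose, Ttr by 4.24, Trf by 3.54, Alb by 2.62, Hnf4a by 1.47 and Apoa1 by 1.03 on the log2 scale (adjusted p from 9.63e-05 to 0.00337 over the 7). The sum over 6 leukocyte markers was 22.6 to 27.9 TPM, most of it Cd68, that over 5 endothelial markers 1.88 to 2.54 TPM in 2D and 6.32 to 6.52 TPM in 3D, where Vwf made up most of it, and that over 5 stellate and fibroblast markers 34.9 to 37.6 TPM in 2D and 18.8 to 19.9 TPM in 3D, most of it Des. Ptprc, Adgre1, Kdr, Col1a1 and Dcn stayed under 1 TPM in every library. Of 5 cholangiocyte markers 4 reached 1 TPM, with sums of 2294 to 2401 TPM in 2D and 2269 to 2357 TPM in 3D, and Epcam was at or near 0. Behind these similar sums Spp1 rose by 2.35 and Sox9 by 0.62, while Krt7 fell by 0.65 and Krt19 by 0.49 (adjusted p from 0.000317 to 0.00317). The part of these differences in the results above was not tested.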

How the data were processed

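RNA-seq libraries of AML12 cells, 2 from 2D and 2 from 3D cultures, were made with a stranded mRNA kit. Reads were trimmed with cutadapt 1.8.3 and Trimmomatic 0.36, aligned to GRCm38 by HISAT2 2.0.5 and quantified by StringTie 1.3.4 against Ensembl release 93. The authors deposited TPM per gene and library, without pooling. TPM keeps no read depth, so no interval or detection limit from counts was computed, and the values of a library are relative to each other. The fold change and p-value columns of the authors' own DESeq2 comparison were not used.

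The test was run for genes averaging 1 TPM or more, on log2(TPM + 1), which understates the change of low genes, with limma 3.58.1 in R 4.3.3 (lmFit, then eBayes, trend and robust set). Culture was the factor, and p-values were two-sided with Benjamini-Hochberg adjustment over all 14116 genes tested. Every adjusted p in the text is from limma. Ratios were tested by exact permutation with scipy 1.17.1 in Python 3.11.15, and figures were drawn with matplotlib 3.10.9. The alternatives tried were a pseudocount of 0.1 or 5, a minimum mean TPM of 5 or none, centring, quantile normalization, rescaling with mitochondrial and the 20 most abundant genes removed, a replicate block, a constant prior variance, an adjusted p under 0.01 and each library left out. A correction for GC content and length (natural splines with 5 degrees of freedom) was chosen after seeing the data. The scripts were first tested on simulated data.

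The members, their roles and the other lists were chosen with earlier results of these data known. Every member is named. From each other pathway list, up to 3 genes with the highest mean TPM and up to 3 with the largest change past the threshold are named. Other genes, markers included, were named after their values were seen. Kitlg, Col1a2 and Serpina1c were not found in the table by symbol. Promoters of Zmat3, Pmaip1, Perp, Trp53inp1, Tnfrsf10b, Ddb2 and Xpc were not used.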

Additional observations from a re-analysis of the deposited data

How the results depend on the processing

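Over 14 alternatives the 33 members gave 462 values, of which 395 kept their direction and side of the threshold, 48 were no longer past it, 5 newly were and 14 changed sign. None of the 19 called members changed sign. The sign changes were Ccng1 (0.0341) and Fas (0.0138) under quantile normalization, Fas after rescaling (0.002), Rps27l (0.12), Tnfrsf10b (-0.0204) and Sesn2 (-0.0038) without 2D replicate 1, Polk (0.0223) without 2D replicate 2, Fas (0.0132) and Sesn2 (-0.0072) without 3D replicate 1, and Ccng1 (0.04), Rps27l (0.13), Fas (0.0634), Polk (0.0065) and Sesn2 (-0.048) with GC content and length corrected for. With a library left out, Rps27l ranged from -0.33 to 0.12, Fas from -0.0619 to 0.0132, Tnfrsf10b from -0.0204 to 0.24, Polk from -0.12 to 0.0223 and Sesn2 from -0.0072 to 0.0595.

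The 11 members higher in 3D became 8 to 9 when a library was left out, where the remaining library of a culture is assumed to vary like those of the other, and 7 at an adjusted p under 0.01. The 8 lower members became 3 to 6 when a library was left out, with 3 without 3D replicate 2, 4 without 3D replicate 1 and 5 without 2D replicate 1, 4 with no filter, 4 with a constant prior variance, 5 with centring and 3 at an adjusted p under 0.01. With the replicate block 11 were higher and 5 lower, with Btg2, Apaf1 and Eda2r not called. Same-numbered libraries did not deviate together over all genes tested (correlation -0.0549). This value cannot show whether they were prepared as pairs, since libraries prepared together need not deviate together, and the labels do not say. The median over the members, -0.0243, was -0.0111 with centring, 0.0341 under quantile normalization, 0.002 after rescaling, 0.0634 with GC content and length corrected for, and -0.0286 to 0.0223 when a library was left out, with the latter without 2D replicate 2. The cause of these shifts of the median was not tested. With 2 libraries per culture the smallest changes, such as those of Eda2r and Btg2, are at the limit of what can be called.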
